A study of Mus musculus with 6 samples.

Results

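Ion channel genes were examined in the count table of a mouse microglial cell line, to see which channels the line transcribes and which of them changed with lipopolysaccharide (LPS). Members were all protein-coding genes whose symbols carry the stems of the main channel families. These are the potassium channels and their auxiliary subunits (Kcn), the transient receptor potential channels (Trpa, Trpc, Trpm and Trpv), the CLC chloride channels and exchangers (Clcn), the voltage-gated sodium (Scn) and calcium (Cacn) channels, the pacemaker channels (Hcn), Piezo, Orai and Stim, the proton channel Hvcn1, the LRRC8 anion channel subunits and the anoctamins (Ano). The rule took 193 of the 54532 genes in the table, or 193 of its 22046 protein-coding genes. For 2 of them, Trpc4ap and Trpc5os, the symbol is only derived from a TRP channel, which leaves 191 genes that belong to the families.

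N9 is an immortalized murine microglial line, grown here in RPMI medium with serum and antibiotics, and a single line in culture is a limited model of microglia in brain tissue. The control group held 3 libraries from untreated cells, and the LPS group held 3 libraries from cells given LPS, the endotoxin of gram-negative bacteria, at 1 µg/ml for 6 h. Both groups came from the same line with no genetic change named. The labels do not say whether the replicates were separate cultures, so p-values measure only the spread between these libraries, which may be technical.

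The libraries held between 16363767 and 17956772 counts, and 3 counts corresponded to between 0.161 and 0.190 CPM (counts scaled to a common library size with edgeR's TMM factors). All 6 of 6 genes of a list of LPS responses, among them Tnf and Cxcl10, were higher in LPS cells and were differentially expressed genes (DEG, adjusted p under 0.05 in edgeR and an absolute log2 fold change, log2FC, over 1.5). Of 13 microglia and macrophage markers, 11 passed edgeR's filter on low counts (filterByExpr), with Csf1r, Spi1 and Ptprc well counted, whereas Aif1 (4 to 9 counts a library) and P2ry12 (3 to 6 counts), a defining marker of microglia in the brain, did not. Markers of neurons, astrocytes and oligodendrocytes summed to 455 to 531, 1576 to 1835 and 686 to 930 counts a library, with 4 of 8, 3 of 7 and 3 of 7 genes never above 3 counts. In these lists Tubb3 (log2FC 1.67) and Gja1 (0.18) rose and Map2 (-0.41), Aldh1l1 (-0.29) and Mbp (-0.34) fell (edgeR adjusted p = 7.27e-07, 0.00989, 0.00221, 0.0129 and 0.00284), and their part in the channel results was not tested. Hepatocyte markers, none of which passed the filter, summed to 4, 280 and 470 counts in control replicates 1, 2 and 3 and to 2, 5 and 9 in LPS cells. Intestinal markers, likewise all below the filter, summed to 22, 263 and 6 counts in control cells and to 5, 10 and 161 in LPS cells. Calls that were lost or gained without control replicate 2 and LPS replicate 3 are given beside the genes. Without control replicates 2 and 3 a single control library remains, and for single genes log2FC values alone are given.

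Ion channels are membrane proteins that let ions pass down their gradients, and the set a cell makes decides its membrane potential and how calcium, chloride and protons move. Microglia lack the action potentials of neurons. Their potassium channels keep the membrane negative and so sustain calcium entry through store-operated channels, in which Stim proteins sense calcium in the endoplasmic reticulum and open Orai pores in the plasma membrane. CLC exchangers serve endosomes and lysosomes, LRRC8 channels release osmolytes from swollen cells, and Hvcn1 carries out the protons that the oxidative burst leaves behind.

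Of the 193 channel genes, 50 (25.9%) passed the filter on low counts and could be tested, against 11042 of 22046 protein-coding genes (50.1%). A further 59 were at 0 counts in every library. The remaining 84 had some counts but stayed below the filter, and 56 of these never exceeded 3 counts in a library. The other 28 of them reached at most 20 counts.

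**Figure D1:**
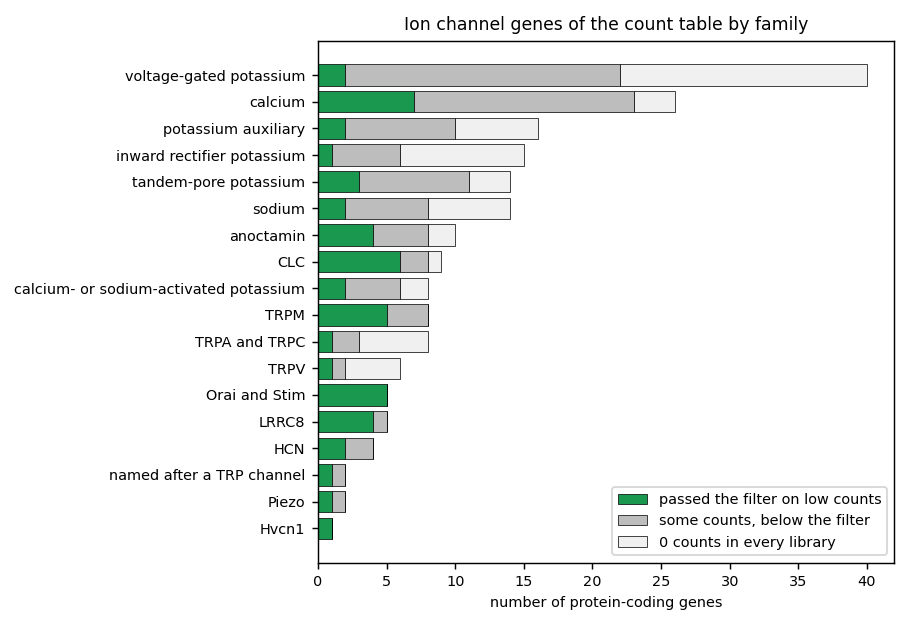
Number of protein-coding ion channel genes in each family (horizontal axis, genes), divided into those that passed the filter on low counts (green), those with some counts below it (grey) and those at 0 counts in all 6 libraries (white). All 5 Orai and Stim genes passed, whereas 2 of 40 voltage-gated potassium channel genes did.

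The families differed in how many of their genes were counted. All 5 Orai and Stim genes, 6 of 9 CLC genes, 4 of 5 LRRC8 genes and 5 of 8 TRPM genes passed the filter. Among the 93 potassium channel genes and auxiliary subunits 10 passed and 38 were at 0 in every library. By subfamily these were 2 of 40 voltage-gated, 1 of 15 inward rectifier, 3 of 14 tandem-pore, 2 of 8 calcium- or sodium-activated and 2 of 16 auxiliary genes. Passing genes numbered 7 of 26 for calcium channels, 2 of 14 for sodium channels, 4 of 10 for anoctamins, 2 of 4 for pacemaker channels, 1 of 2 for Piezo, 1 of 6 for TRPV, 1 of 8 for TRPA and TRPC together, and the single gene for Hvcn1.

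Levels of different genes are compared as TPM, counts per gene length scaled to the same total in each library, computed here from the counts and the gene lengths in the table. On this scale 43 channel genes had a mean of at least 1 TPM over the 6 libraries, all of them among those tested, and 27 had at least 10 TPM. The 5 highest, Kcnn4, Kcnab2, Trpv2, Piezo1 and Clcn7, held 50.2% of the summed channel TPM. Kcnn4, the intermediate-conductance calcium-activated potassium channel of immune cells, had a mean of 180.04 TPM. Kcnab2, a cytosolic beta subunit of Shaker-type potassium channels, was at 179.8 TPM. Trpv2, a calcium-permeable channel known from macrophages, was at 99.9 TPM, Piezo1, the mechanically gated cation channel, at 98.8 TPM and Clcn7, the lysosomal chloride and proton exchanger, at 56.8 TPM. The next 10 ran from Trpc4ap at 52.3 TPM through Kcnk6 (43.4), Kcnj2 (42.9), Orai3 (39.5), Ano6 (35.8), Orai1 (34.0), Orai2 (33.7), Kcnk13 (29.7) and Trpm7 (26.0) to Lrrc8d at 23.3 TPM.

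The order of neighbours was not fixed in every library. Kcnab2 was above Kcnn4 in the control libraries, at 194.24 ± 1.16 against 148.93 ± 1.16 TPM (SD, n = 3), and below it in LPS cells, at 165.38 ± 4.89 against 211.14 ± 4.33 TPM. Piezo1 and Trpv2 overlapped in TPM, since Piezo1 ranged from 89.1 to 112 TPM across all 6 libraries and Trpv2 from 96.4 to 104 TPM. The summed TPM of all channel genes was 1183, 1256 and 1213 in control cells and 1231, 1233 and 1242 in LPS cells, so the groups overlapped in this total. Their share of the counts, 0.267%, 0.280% and 0.274% in control cells and 0.282%, 0.288% and 0.286% in LPS cells, was higher in every LPS library. TPM lack the adjustment for composition between libraries (TMM) that the CPM have, and the median log2 ratio of LPS to control TPM over all tested genes was -0.13, so the tests between groups use counts, and their values are given as counts or CPM.

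**Figure D2:**
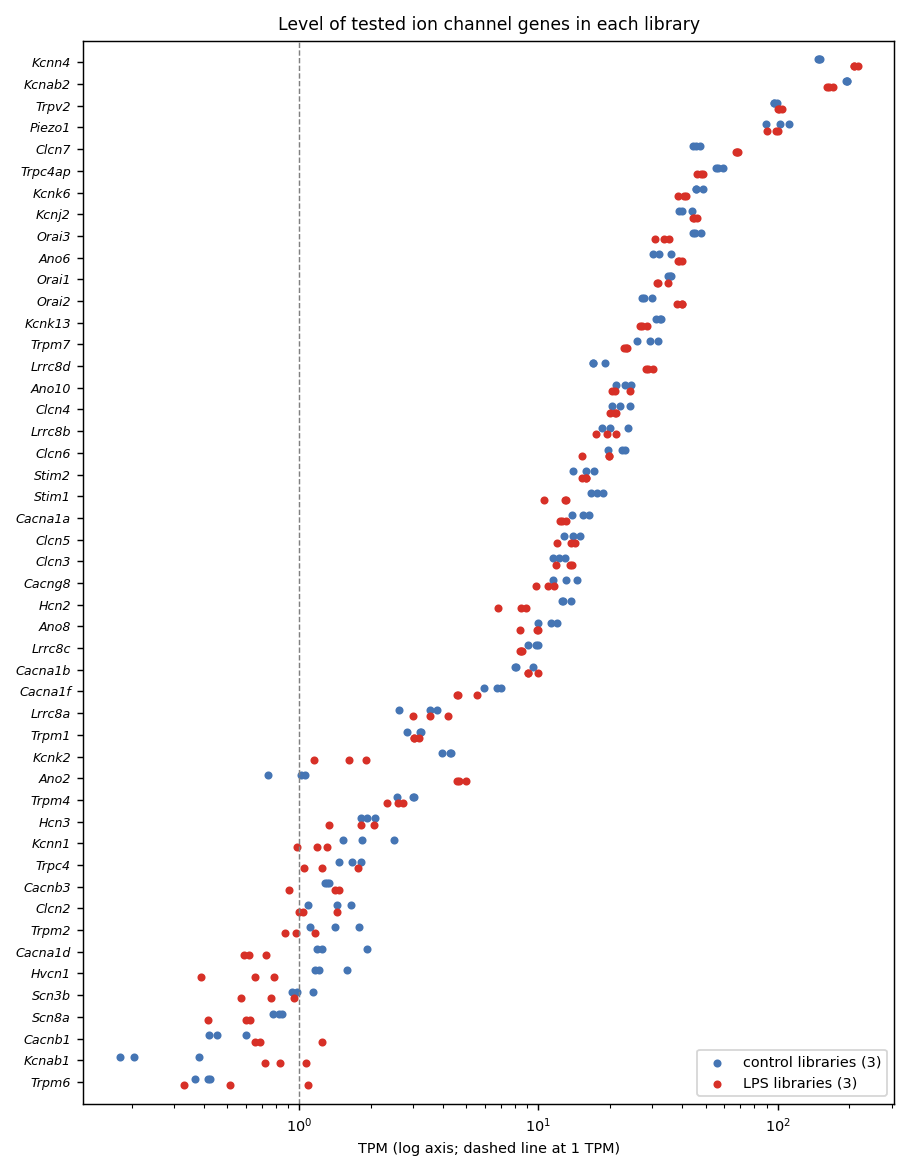
Level of the tested ion channel genes reported here in TPM (horizontal log axis) in the 3 control libraries (blue) and the 3 LPS libraries (red), ordered by mean, with a dashed line at 1 TPM. Kcnn4, Clcn7, Orai2, Lrrc8d and Ano2 show LPS points to the right of the control points, and Orai3, Stim1, Hcn2, Kcnk2 and Cacna1d show them to the left.

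Several channels were hardly counted in this line, among them Kcna3, Kcna5 and Trpv4, which are known from microglia or macrophages. Kcna3, the voltage-gated potassium channel most studied in microglia, had 3, 11 and 10 counts in control cells and 2, 9 and 10 in LPS cells. Trpv4, an osmotically sensitive channel, had 3, 12 and 13 counts in control cells and 2, 5 and 5 in LPS cells. Kcna5, a voltage-gated potassium channel, Trpv1, the capsaicin receptor, and Trpc6 were at 0 in all 6 libraries, where 3 counts or 0.161 to 0.190 CPM is the upper limit that a count of 0 allows. Ano1, the calcium-activated chloride channel of epithelia, never exceeded 1 count. Piezo2, the touch channel of sensory neurons, reached 20 counts in 1 LPS library and 4 to 9 in the other 5.

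Counts of LPS-stimulated and control libraries were compared with edgeR's quasi-likelihood test, fitted on all genes and adjusted over the 12296 that passed the filter. A gene was called at an adjusted p under 0.05, and SE is the standard error of a log2FC. Of the 50 tested channel genes 20 (40%) were called, where 34.3% of all tested genes were. Of these, 11 (22%) were higher with LPS, against 18.7% of all tested genes, and 9 (18%) were lower, against 15.7%. The DEG were Ano2 and Kcnab1, which is 2 of 50 (4%) against 2.65% of all tested genes. The remaining 30 were not called. In bulk RNA, a change in level per cell and a change in the share of cells that carry the transcript cannot be told apart.

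Among the 20 called genes 10 had an absolute log2FC below 0.5 and 4 exceeded 1. The median absolute log2FC was 0.22 for the 50 tested channel genes and 0.17 for all tested genes. With the sign kept, the medians were -0.03 and 0.00. For 23 channel genes (46%) the CPM of the LPS libraries lay entirely on one side of the control libraries, against 45.3% of all tested genes. Without a called difference, Kcnab2, Kcnn1, Scn8a and Cacnb1 also had groups that did not overlap, and Cacna1f was called although its groups overlapped.

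Leaving out single libraries ended 1 of the higher calls and several of the lower ones. All but Cacna1b of the 11 higher genes were called in all 6 such fits. Of the 9 lower genes, Orai3, Stim1, Hcn2, Kcnk2 and Cacna1d were called in all 6, whereas Trpc4ap was called in 1 of 6, Trpm7 and Cacna1f in 2 and Hvcn1 in 0. The count of lower genes was 5 without control replicate 2, without control replicate 3, without LPS replicate 2 or without LPS replicate 3. Over all tested genes the called ones, in both directions together, numbered 4221 with all 6 libraries and 3379 to 3742 in these 4 fits. Leaving out control replicates 2 and 3, where hepatocyte markers were high, leaves a single control library. No call is read from that fit, and for single genes only log2FC values from it are given. Without control replicate 2 and LPS replicate 3, where intestinal markers were high, 11 channel genes were higher and 5 lower, and 3273 of all tested genes were called.

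**Figure D3:**
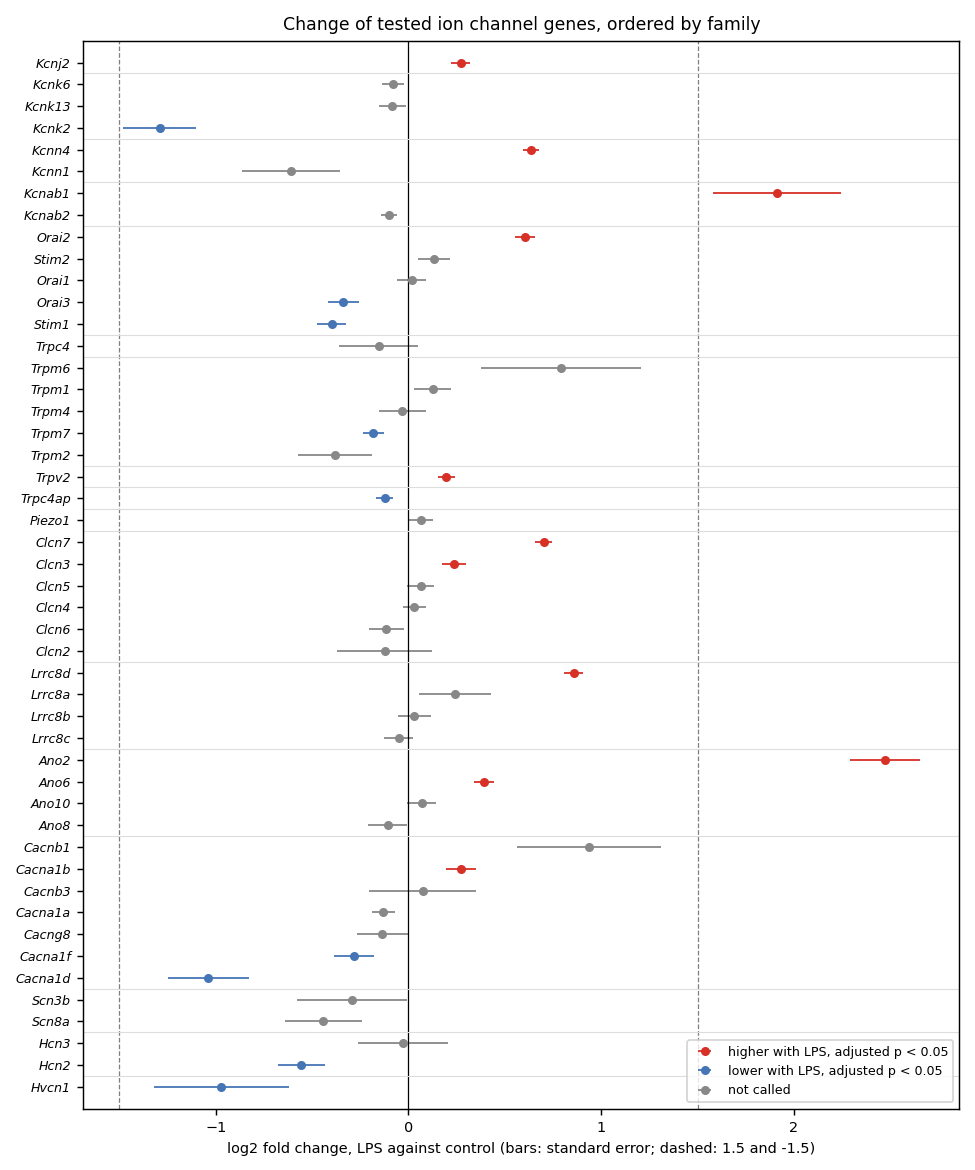
Log2 fold change of LPS against control for the tested ion channel genes reported here (horizontal axis), grouped by family, with bars for the SE. Red and blue points passed an adjusted p of 0.05 in edgeR, grey points did not, and the dashed lines mark 1.5 and -1.5, which Ano2 and Kcnab1 alone exceed.

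Promoter sequence is shown for the called channel genes in which a window held a motif of a factor used in the LPS response. Windows of 300 bases, from 250 before to 50 after an annotated start, came from RefSeq on GRCm38.p6, which shares its coordinates with the mm10 build of the files. They existed for 147 of 193 channel genes, 41 of the 50 tested and 19 of the 20 called. The motifs searched on both strands were TTCNNNGAA, the gamma-activated site of STAT factors, TGANTCA of AP-1, the interferon-stimulated response element as GAAA and GAAA separated by any 2 bases, and the kappa B motif. A match is a description of letters in a window and no evidence of binding. Capitals mark the matches, and matches to different motifs did not overlap in these windows.

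Ano2, chr6:125710938-125711237, plus strand, kappa B motif 74 bases before an annotated start inside the gene in the deposited table:
Ano2: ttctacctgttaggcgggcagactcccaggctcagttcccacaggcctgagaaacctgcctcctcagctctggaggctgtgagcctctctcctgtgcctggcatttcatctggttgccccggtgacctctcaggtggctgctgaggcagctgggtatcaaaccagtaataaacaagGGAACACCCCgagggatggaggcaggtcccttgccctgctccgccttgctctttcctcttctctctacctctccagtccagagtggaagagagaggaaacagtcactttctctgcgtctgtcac

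Kcnab1, chr3:64948962-64949261, plus strand, TTCNNNGAA 188 bases and the interferon-stimulated response element 30 bases before the start, in a window that lies before the start of the gene in the deposited table:
Kcnab1 upstream window: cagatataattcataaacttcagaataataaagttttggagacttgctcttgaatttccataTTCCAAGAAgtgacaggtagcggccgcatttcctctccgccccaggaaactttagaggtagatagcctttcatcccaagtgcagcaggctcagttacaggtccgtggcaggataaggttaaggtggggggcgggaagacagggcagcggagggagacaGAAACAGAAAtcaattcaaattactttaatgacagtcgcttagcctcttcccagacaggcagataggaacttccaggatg

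Kcnab1, chr3:65187853-65188152, plus strand, 2 overlapping matches to the interferon-stimulated response element 90 and 84 bases before the start, read on the minus strand:
Kcnab1 internal window: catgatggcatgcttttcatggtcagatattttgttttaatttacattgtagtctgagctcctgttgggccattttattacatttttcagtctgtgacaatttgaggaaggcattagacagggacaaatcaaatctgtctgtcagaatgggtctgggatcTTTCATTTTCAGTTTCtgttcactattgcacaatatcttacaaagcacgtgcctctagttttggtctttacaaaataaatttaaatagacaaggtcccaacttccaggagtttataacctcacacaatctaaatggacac

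Kcnn4, chr7:24370013-24370312, plus strand, kappa B motif 33 bases before the start:
Kcnn4: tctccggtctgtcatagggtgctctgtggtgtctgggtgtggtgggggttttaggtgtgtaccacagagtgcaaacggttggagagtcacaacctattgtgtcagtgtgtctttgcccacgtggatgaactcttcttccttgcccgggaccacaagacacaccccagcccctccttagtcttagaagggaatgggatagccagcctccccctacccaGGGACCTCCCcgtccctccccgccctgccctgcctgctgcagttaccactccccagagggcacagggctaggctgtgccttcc

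Clcn7, chr17:25133141-25133440, plus strand, TTCNNNGAA 141 bases before the start:
Clcn7: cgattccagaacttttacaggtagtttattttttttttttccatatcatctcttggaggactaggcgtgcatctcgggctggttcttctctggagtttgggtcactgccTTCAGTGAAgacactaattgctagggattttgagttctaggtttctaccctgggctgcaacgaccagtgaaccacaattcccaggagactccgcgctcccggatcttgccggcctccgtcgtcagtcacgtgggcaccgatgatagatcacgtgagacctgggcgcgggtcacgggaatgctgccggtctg

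Kcnk2, chr1:189344143-189344442, minus strand, TGANTCA 126 bases before an annotated start inside the gene in the deposited table:
Kcnk2: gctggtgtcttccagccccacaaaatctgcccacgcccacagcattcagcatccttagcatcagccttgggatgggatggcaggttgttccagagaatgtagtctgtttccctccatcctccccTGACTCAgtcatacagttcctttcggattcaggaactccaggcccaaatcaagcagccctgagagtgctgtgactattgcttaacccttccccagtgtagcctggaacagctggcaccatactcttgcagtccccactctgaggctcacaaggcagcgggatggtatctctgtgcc

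Trpv2, chr11:62575377-62575676, plus strand, kappa B motif 120 bases before the start, in a window that lies inside the gene in the deposited table:
Trpv2: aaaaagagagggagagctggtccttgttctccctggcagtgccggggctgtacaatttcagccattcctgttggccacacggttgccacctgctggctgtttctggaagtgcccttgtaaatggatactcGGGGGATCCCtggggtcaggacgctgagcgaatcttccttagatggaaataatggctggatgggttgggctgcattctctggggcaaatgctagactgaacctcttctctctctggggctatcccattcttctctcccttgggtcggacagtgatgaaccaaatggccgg

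Ano2, Kcnab1 and Trpv2 had 3 windows each, Clcn7 2 and Kcnk2 4, and those not printed held none of the 4 motifs, as did the windows of the other called genes. Over the 63 windows of the tested channel genes the interferon-stimulated response element was present in 2 (3.17%), against 3.44% of all 32851 windows. TTCNNNGAA was present in 3 (4.76%) against 8.3%, TGANTCA in 2 (3.17%) against 7.81%, and the kappa B motif in 10 (15.9%) against 8.46%. Of the 10 windows with a kappa B motif, 3 belonged to genes higher with LPS (Ano2, Kcnn4 and Trpv2), none to genes lower with LPS, and 7 to genes that were not called (Ano10, Kcnn1, Lrrc8b, Lrrc8c, Stim2 and, with 2 windows, Scn8a), so the motif was found at channel genes with and without a change.

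Among the potassium channels Kcnn4 and Kcnj2 rose, Kcnk2 fell and the other tested pore-forming genes were not called. Kcnn4 (chr7:24370263-24386690 in the deposited table) opens when cytosolic calcium rises and draws the membrane potential down. Its level was 259, 251 and 259 CPM in control cells and 393, 396 and 404 CPM in LPS cells. All LPS libraries were above all control libraries, with little spread in either group. The difference was 1.55-fold, with a log2FC of 0.64 (SE 0.04, edgeR adjusted p = 7.34e-09). Kcnn1, a small-conductance relative found mainly in neurons, had 49, 66 and 44 counts in control cells and 26, 33 and 36 in LPS cells, and its log2FC of -0.61 (SE 0.25) was not called (edgeR adjusted p = 0.0796).

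Kcnj2 (chr11:111066164-111076821) is the classical inward rectifier that holds the resting potential of many cells, and was the single tested gene of its subfamily. It was at 72.5, 78.3 and 73.3 CPM in control cells and 89.4, 89.2 and 91.8 CPM in LPS cells. Both groups were tight and separate. The rise was 1.21-fold (log2FC 0.27, SE 0.05, edgeR adjusted p = 5.12e-04).

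The tandem-pore channels carry background potassium leak. Kcnk2 (chr1:189207930-189402273), a leak channel opened by stretch and lipids, had the lowest log2FC of the tested channel genes. It had 115, 122 and 134 counts in control cells and 33, 57 and 48 in LPS cells, with no overlap. Its level went from 6.95 ± 0.249 to 2.83 ± 0.697 CPM (SD, n = 3), with a log2FC of -1.29 (SE 0.19, edgeR adjusted p = 7.99e-05). Kcnk13, the tandem-pore channel that gives microglia their resting potassium current, was at 34.5, 31.6 and 34.1 CPM in control cells and 30.6, 31.4 and 32.5 CPM in LPS cells. Kcnk6, a tandem-pore channel of macrophages, was at 69.2, 62.0 and 63.7 CPM in control cells and 58.8, 62.5 and 62.8 CPM in LPS cells. For both the groups overlapped, and their log2FC values of -0.08 each were not called (edgeR adjusted p = 0.393 for Kcnk13 and 0.302 for Kcnk6).

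Kcnab1 and Kcnab2 encode cytosolic beta subunits that bind Shaker-type channels and alter their gating and traffic. Kcnab1 (chr3:65109384-65378223), with the interferon-stimulated response element in both printed windows, was a DEG at a low level. It had 9, 19 and 11 counts in control cells and 36, 56 and 43 in LPS cells, so the groups did not overlap. Its level rose from 0.731 ± 0.301 to 2.77 ± 0.582 CPM (SD, n = 3), with a log2FC of 1.91 (SE 0.33, edgeR adjusted p = 3.80e-04), with 1.72 to 2.29 in the leave-one-out fits. Kcnab2, which was counted far more deeply, was at 372, 357 and 363 CPM in control cells and 351, 339.5 and 329 CPM in LPS cells. All 3 LPS libraries were lower, but the log2FC of -0.10 (SE 0.04) was not called by edgeR (adjusted p = 0.074) and was called by DESeq2 (adjusted p = 0.0365). It was also called by edgeR with robust dispersion (adjusted p = 0.0475), with a replicate block (0.0426) and without LPS replicate 1 (0.0457). None of the Kcna genes, which encode the alpha subunits with which they assemble, passed the filter. Kcna1, Kcna4, Kcna5 and Kcna10 were at 0 in all libraries, and Kcna3 had 2 to 11 counts a library.

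All 5 Orai and Stim genes were expressed, and they did not move in 1 direction. Orai2 rose, Orai3 and Stim1 fell, and Orai1 and Stim2 were not called. Orai2 (chr5:136147459-136170713) was at 56.3, 55.3 and 61.1 CPM in control cells and 89.1, 85.4 and 88.5 CPM in LPS cells. Every LPS library exceeded every control library. Its log2FC was 0.61 (SE 0.05, edgeR adjusted p = 3.71e-07), a 1.52-fold rise. Orai3 (chr7:127769815-127775150), which is found in mammals alone, was at 35.1, 31.2 and 32.8 CPM in control cells and 26.5, 24.3 and 27.6 CPM in LPS cells. These groups were also separate, with a log2FC of -0.34 (SE 0.08, edgeR adjusted p = 0.00385). Orai1, the main pore subunit of store-operated entry in lymphocytes, was at 27.3, 26.8 and 27.7 CPM in control cells and 29.4, 26.7 and 26.6 CPM in LPS cells, which overlapped (log2FC 0.02, SE 0.08, edgeR adjusted p = 0.895).

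Stim1 (chr7:102267806-102437319), the principal calcium sensor of the endoplasmic reticulum, was at 62.3, 63.5 and 58.0 CPM in control cells and 49.2, 50.1 and 40.1 CPM in LPS cells. The LPS libraries were all lower, LPS replicate 3 the most, and the log2FC was -0.40 (SE 0.08, edgeR adjusted p = 9.13e-04). Stim2, the sensor that responds to smaller losses of stored calcium, was at 24.6, 26.6 and 29.6 CPM in control cells and 28.8, 30.2 and 29.6 CPM in LPS cells. Its groups overlapped, and its log2FC of 0.13 (SE 0.08) was not called (edgeR adjusted p = 0.242).

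The composition of these families can be given as the share of each gene in the summed TPM of its paralogs, as a description with no test. Among the 3 Orai genes the share of Orai2 went from 25.8% ± 1.09 to 37.3% ± 0.576 (SD, n = 3) and that of Orai3 from 41.9% ± 1.53 to 31.6% ± 1.24, and neither overlapped between the groups. Orai1 was at 32.3% ± 0.721 in control cells and 31.1% ± 1.25 in LPS cells, with overlap. Orai3 thus had the largest share in every control library and Orai2 in every LPS library. The share of Stim1 in the sum with Stim2 went from 53.0% ± 3.33 to 43.7% ± 3.06, and the groups did not overlap.

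**Figure D4:**
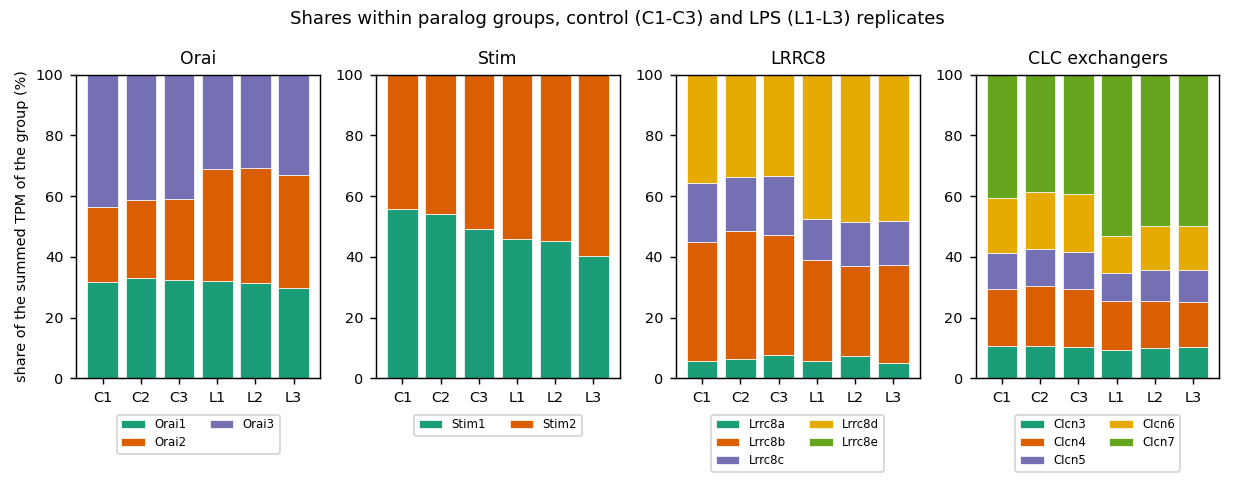
Share of each gene in the summed TPM of its paralogs (vertical axis, percent) in control replicates C1 to C3 and LPS replicates L1 to L3, for Orai, Stim, LRRC8 and the CLC exchangers Clcn3 to Clcn7. The shares of Orai2, Stim2, Lrrc8d and Clcn7 are higher in each LPS library than in each control library. Those of Stim1 and Stim2 mirror each other by construction, and Stim2 itself was not called.

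Of the TRP channels, Trpv2 rose slightly and Trpm7 was called lower with a small difference. Trpv2 (chr11:62574486-62600515) was at 148, 147 and 147 CPM in control cells and 167, 174 and 165 CPM in LPS cells. The groups were separate, and the 1.15-fold rise had a log2FC of 0.20 (SE 0.04, edgeR adjusted p = 0.00233). Without control replicates 2 and 3, which leaves a single control library, the log2FC was 0.19. Trpm7, a magnesium- and calcium-permeable channel fused to a kinase, was at 99.7, 117 and 111 CPM in control cells and 96.7, 95.6 and 97.0 CPM in LPS cells. Control replicate 1 lay close to the LPS libraries, and the log2FC was -0.18 (SE 0.06, edgeR adjusted p = 0.0209). The call was lost without control replicate 2, control replicate 3, LPS replicate 2 or LPS replicate 3 (adjusted p between 0.0539 and 0.0891). The log2FC was -0.14 and not called without control replicate 2 and LPS replicate 3 (adjusted p = 0.153). It was -0.05 without control replicates 2 and 3, which leaves a single control library.

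The other tested TRPM genes were not called. Trpm2, the channel opened by ADP-ribose and oxidative stress, had 103, 128 and 87 counts in control cells and 70, 88 and 65 in LPS cells, with a log2FC of -0.38 (SE 0.19, edgeR adjusted p = 0.148). Trpm4, a calcium-activated channel for monovalent cations, had 190, 160 and 204 counts in control cells and 147, 171 and 176 in LPS cells (log2FC -0.03, edgeR adjusted p = 0.873). Trpm6, the kinase-bearing relative of Trpm7, had 14, 16 and 17 counts in control cells and 41, 13 and 20 in LPS cells, where LPS replicate 1 stood apart. Its log2FC was 0.79 (SE 0.42, edgeR adjusted p = 0.166), and ran from 0.19 to 1.11 in the leave-one-out fits. Trpm1 was at 14.0 to 16.3 CPM in control cells and 16.3 to 17.2 CPM in LPS cells (edgeR adjusted p = 0.352). Trpc4 was the single TRPC channel tested, with 51 to 85 counts a library and a log2FC of -0.15 (edgeR adjusted p = 0.615). Trpc4ap, an adaptor protein of a ubiquitin ligase rather than a channel, was called lower with a log2FC of -0.12 (SE 0.04, edgeR adjusted p = 0.0411), and the call was lost in 5 of 6 fits with a library left out. It was also lost without control replicate 2 and LPS replicate 3 (adjusted p = 0.123). Without control replicates 2 and 3, which leaves a single control library, the log2FC of Trpc4ap was -0.11.

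Piezo1, the mechanosensitive channel that macrophages use to sense stiffness and pressure, was at 303, 364 and 344 CPM in control cells and 329, 371 and 359.6 CPM in LPS cells. The groups overlapped, and the log2FC was 0.07 (SE 0.06, edgeR adjusted p = 0.452). Of its exon bases 24.6% overlap Ctu2 on the opposite strand, which had 529 to 685 counts a library. Whether the counting used strand is not given in the sources used here. Without control replicates 2 and 3, which leaves a single control library, Piezo1 had a log2FC of 0.22.

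Of the 14 tested CLC, LRRC8 and anoctamin genes, which encode anion channels, exchangers and scramblases, 5 (35.7%) were higher with LPS, against 18.7% of all tested genes. These were Lrrc8d, Clcn7, Clcn3, Ano6 and Ano2, and the other 9 were not called. None was lower, against 15.7% of all tested genes. The families were grouped here with the results known, and the group was not tested. Clcn7 (chr17:25133391-25162104) exchanges chloride for protons across the lysosomal membrane. It was at 80.1, 82.1 and 81.5 CPM in control cells and 133, 133 and 129.8 CPM in LPS cells. The libraries of each group lay within a few CPM of each other, and the 1.63-fold rise had a log2FC of 0.70 (SE 0.04, edgeR adjusted p = 7.79e-09). Ostm1, the subunit that Clcn7 needs for its stability, fell instead, from 63.1 ± 0.699 to 54.4 ± 0.749 CPM (SD, n = 3), with a log2FC of -0.21 (SE 0.05, edgeR adjusted p = 0.00421). That call was kept in all 6 fits with a single library left out. Without control replicates 2 and 3 a single control library remains, so no call is read from that fit.

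Clcn3, an endosomal exchanger, was at 67.3, 72.4 and 70.0 CPM in control cells and 74.7, 85.9 and 86.5 CPM in LPS cells. LPS replicate 1 lay just above the control libraries, and the log2FC was 0.24 (SE 0.06, edgeR adjusted p = 0.00707). The endosomal exchangers Clcn4, Clcn5 and Clcn6 and the plasma membrane channel Clcn2 were not called, with log2FC values of 0.03, 0.06, -0.12 and -0.12 (edgeR adjusted p = 0.724, 0.524, 0.371 and 0.745). Within Clcn3 to Clcn7 the TPM share of Clcn7 went from 39.6% ± 1.05 to 51.0% ± 2.00 (SD, n = 3), and the shares of the other 4 were lower in each LPS library than in each control library.

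LRRC8 channels are hexamers that open on swelling, in which Lrrc8a is obligatory and the other subunits set what passes, Lrrc8d favouring organic osmolytes. Lrrc8d (chr5:105699969-105832436) was at 72.6, 78.6 and 71.5 CPM in control cells and 139, 132 and 133 CPM in LPS cells. The groups were far apart relative to their spread, and the 1.81-fold rise had a log2FC of 0.86 (SE 0.05, edgeR adjusted p = 3.87e-09). Lrrc8b and Lrrc8c had log2FC values of 0.03 (SE 0.08, edgeR adjusted p = 0.815) and -0.05 (SE 0.08, edgeR adjusted p = 0.656). Lrrc8a had 66, 88 and 102 counts in control cells and 88, 110 and 77 in LPS cells, with a log2FC of 0.24 (SE 0.19, edgeR adjusted p = 0.36). Its counts are uncertain, since 66.2% of its exon bases are shared with Gm28035 on the same strand, which was at 0 in all libraries, and the handling of reads on shared exons is not given in the sources used here. Of the LRRC8 TPM the share of Lrrc8d went from 34.4% ± 1.29 to 48.1% ± 0.431 (SD, n = 3), while those of Lrrc8b and Lrrc8c were lower in each LPS library and that of Lrrc8a overlapped. Lrrc8e never exceeded 3 counts.

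Anoctamins include calcium-activated chloride channels and lipid scramblases. Ano2 (chr6:125690419-126040126), a chloride channel known from olfactory neurons and photoreceptors, had the highest log2FC of the tested channel genes. It had 32, 33 and 25 counts in control cells and 146, 164 and 147 in LPS cells. The groups were far apart, with little spread within either. Its level rose from 1.69 ± 0.303 to 9.40 ± 0.541 CPM (SD, n = 3), a 5.55-fold difference with a log2FC of 2.47 (SE 0.18, edgeR adjusted p = 4.78e-08). In the leave-one-out fits the log2FC of Ano2 ran from 2.32 to 2.54. Ano6 (chr15:95790843-95974751), a calcium-activated scramblase that exposes phosphatidylserine, was at 127, 144 and 132 CPM in control cells and 175, 181 and 173 CPM in LPS cells. These groups were separate, with a log2FC of 0.39 (SE 0.05, edgeR adjusted p = 2.67e-05). Ano10 and Ano8 were not called, with log2FC values of 0.07 (edgeR adjusted p = 0.524) and -0.11 (edgeR adjusted p = 0.456).

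**Figure D5:**
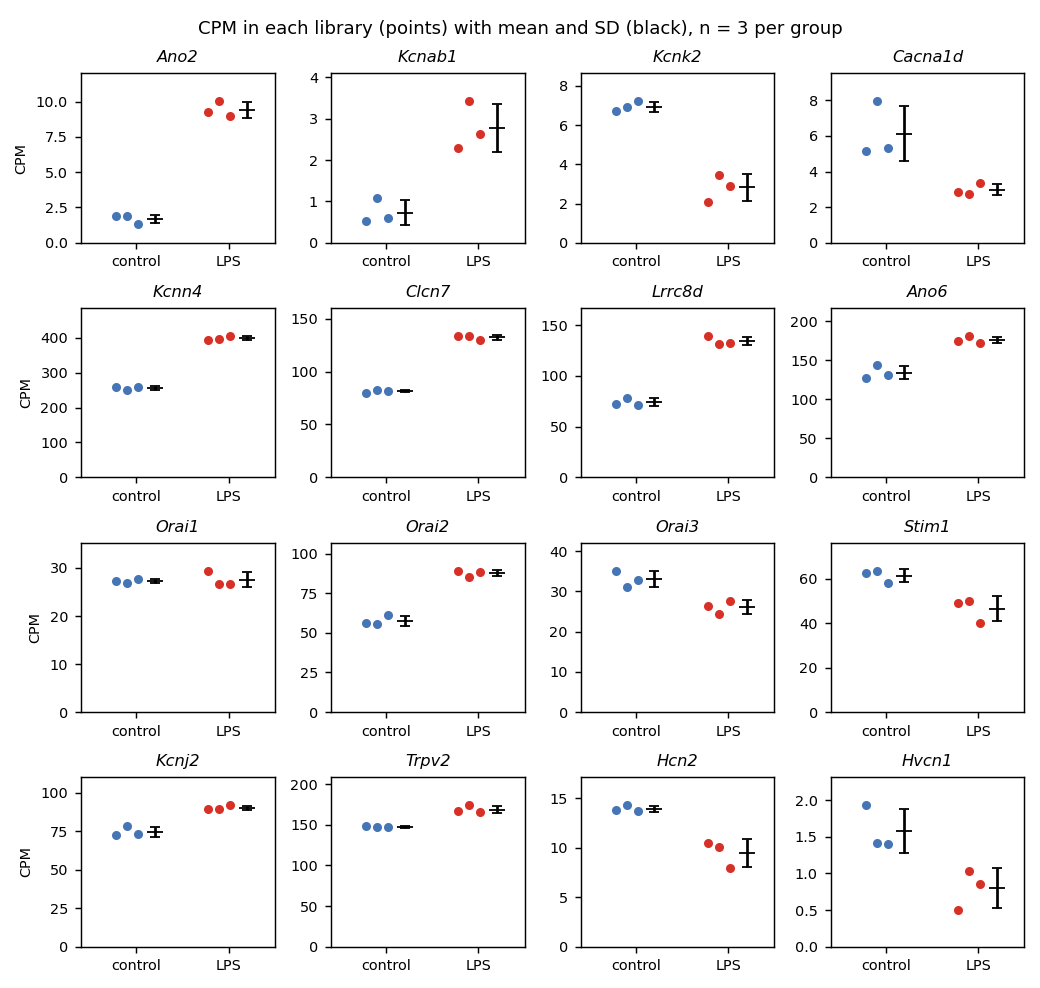
CPM (vertical axes, each from 0) of 16 ion channel genes in each of 3 control libraries (blue) and 3 LPS libraries (red), with the mean and SD of each group in black. For 15 of the genes the groups do not overlap, from Ano2 with 1.69 and 9.40 CPM to Trpv2 with 147 and 169 CPM, and for Orai1 they do.

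Voltage-gated calcium channels are best known from neurons, muscle and endocrine cells, and 7 of the 26 genes with the Cacn stem were tested. Cacna1d (chr14:30039939-30491455), an L-type pore subunit, had 88, 140 and 99 counts in control cells and 45, 45 and 55 in LPS cells. The groups did not overlap, although control replicate 2 was well above the others, and the log2FC was -1.04 (SE 0.21, edgeR adjusted p = 0.00123). It was -0.78 without control replicates 2 and 3, which leaves a single control library. Cacna1b, the N-type pore subunit, was at 27.3, 31.1 and 26.8 CPM in control cells and 33.2, 33.5 and 36.1 CPM in LPS cells, with a log2FC of 0.27 (SE 0.08, edgeR adjusted p = 0.0146). The call was lost without control replicate 1, control replicate 3 or LPS replicate 3 (adjusted p between 0.0515 and 0.0854). Cacna1f, the L-type subunit of photoreceptors, had 317, 353 and 399 counts in control cells and 292, 256 and 250 in LPS cells. In CPM its highest LPS library reached the lowest control library, at 18.5 CPM each, and the log2FC of -0.28 (SE 0.10, edgeR adjusted p = 0.0448) was not called by DESeq2 (adjusted p = 0.0983) or in 4 of 6 fits with a library left out. It was -0.23 and not called without control replicate 2 and LPS replicate 3 (adjusted p = 0.223). With control replicates 2 and 3 left out, which leaves a single control library, it was -0.17.

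Cacna1a, the P/Q-type subunit and the calcium channel gene with the highest level at 13.9 TPM, had a log2FC of -0.13 (SE 0.06, edgeR adjusted p = 0.109), and was called without control replicate 1 (-0.19, adjusted p = 0.019). The auxiliary subunits Cacnb1 and Cacnb3 were not called, and neither was Cacng8. Cacnb1 had 12, 11 and 17 counts in control cells and 18, 18 and 34 in LPS cells, with a log2FC of 0.94 (SE 0.37, edgeR adjusted p = 0.0677). Both tested sodium channel genes had a mean under 1 TPM over the 6 libraries. Scn8a, a pore subunit of neurons, had 76, 77 and 77 counts in control cells and 55, 40 and 59 in LPS cells, with a log2FC of -0.44 (SE 0.20, edgeR adjusted p = 0.105). Scn3b, an auxiliary subunit, had a log2FC of -0.29 (SE 0.29, edgeR adjusted p = 0.474).

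Hcn2 (chr10:79716634-79736108), a cation channel opened by hyperpolarization, fell. It had 236, 252 and 255 counts in control cells and 165, 165 and 130 in LPS cells. The groups were separate, with LPS replicate 3 the lowest, and the log2FC was -0.56 (SE 0.12, edgeR adjusted p = 0.00224). Hcn3 had 47, 50 and 47 counts in control cells and 32, 52 and 45 in LPS cells (log2FC -0.03, SE 0.23, edgeR adjusted p = 0.943). Hvcn1 (chr5:122206804-122242297), the voltage-gated proton channel that accompanies the NADPH oxidase, had 33, 25 and 26 counts in control cells and 8, 17 and 14 in LPS cells. The LPS libraries were all lower, but at this depth the call was at the threshold, with a log2FC of -0.97 (SE 0.35, edgeR adjusted p = 0.0447). It was lost in all 6 fits with a library left out (log2FC -1.20 to -0.74, adjusted p between 0.0553 and 0.176) and with DESeq2 (adjusted p = 0.145). It was also lost without control replicate 2 and LPS replicate 3 (adjusted p = 0.0985). Without control replicates 2 and 3, which leaves a single control library, the log2FC of Hvcn1 was -1.26. Of its exon bases 44.2% overlap Tctn1 on the opposite strand, which had 48 to 69 counts a library.

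Channels of other families were taken from a list of 49 genes in the table, of which 28 were tested. Of these 6 (21.4%) were higher, against 18.7% of all tested genes, and 1 (3.57%) was lower, against 15.7%. The other 21 were not called, none was a DEG, and the median log2FC was 0.04. Mcoln2, a cation channel of endosomes and lysosomes, rose from 31.9 ± 1.73 to 75.6 ± 2.60 CPM (SD, n = 3), a log2FC of 1.24 (SE 0.06, edgeR adjusted p = 4.33e-10), whereas its paralogs Mcoln1 and Mcoln3 were not called (-0.06 and -0.10, edgeR adjusted p = 0.384 and 0.297). The endolysosomal channels Tpcn2 and Tpcn1 moved apart, with log2FC values of 0.31 (SE 0.06, edgeR adjusted p = 0.00147) and -0.34 (SE 0.05, edgeR adjusted p = 3.72e-05). P2rx4, an ATP-gated cation channel, rose by a log2FC of 0.54 (SE 0.07, edgeR adjusted p = 4.28e-05), and P2rx7, the ATP receptor that triggers interleukin release, had 0.09 (SE 0.08, edgeR adjusted p = 0.444). Panx1, a large-pore channel that releases ATP, rose with a log2FC of 0.45 (SE 0.06, edgeR adjusted p = 1.65e-05). Clic4 and Clic1 rose by 0.27 and 0.17 (edgeR adjusted p = 1.11e-05 and 0.00719), and the call of Clic1 was lost without control replicate 3.

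A list of channel regulators had 18 genes in the table and 12 tested, of which 3 (25%) were higher, against 18.7% of all tested genes, 1 (8.33%) was lower, against 15.7%, and 8 were not called. Sgk1, a kinase that raises the surface level of many channels, rose from 30.6 ± 0.829 to 74.5 ± 2.03 CPM (SD, n = 3), with a log2FC of 1.28 (SE 0.06, edgeR adjusted p = 1.48e-10). Nedd4l, a ubiquitin ligase that removes channels from the membrane, rose by 0.70 (SE 0.07, edgeR adjusted p = 8.12e-07) and Oxsr1, a kinase of the chloride and volume pathway, by 0.32 (SE 0.05, edgeR adjusted p = 1.12e-04). The lower gene was Ostm1. Saraf, which limits store-operated calcium entry, had a log2FC of 0.07 (SE 0.05, edgeR adjusted p = 0.351).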

How the data were processed

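RNA-seq of N9 cells was made for 3 control and 3 LPS samples, grouped by the labels. The authors deposited whole-number counts of reads per gene, without normalization, made per the submitters' processing notes with featureCounts 1.5.0-p3 on mm10. The aligner, the strand setting and the annotation release are not given in the sources used here. The authors' deposited comparison of 20014 genes (fold changes, p-values, normalized values and FPKM) was not used.

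Members were matched on gene symbol and biotype. The pattern as given had an unmatched closing parenthesis, which was dropped, and 6 antisense genes that also matched were left out as not protein-coding. Positions of 187 of 193 members equal those of GENCODE M21 on GRCm38. The members, lists and alternatives were chosen with earlier results of these data known. Named genes are the called members, the 15 with the highest TPM and channels known from microglia and macrophages, and other tested members complete each family. Some members that were not tested are also named. The results of 2 tested members that were not called are not reported here.

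edgeR 4.0.16 (R 4.3.3) was used with TMM normalization (factors 0.9646 to 1.0363), filterByExpr by group, a prior count of 0.125 and Benjamini-Hochberg adjustment over 12296 genes. Standard errors are the log2 fold change divided by the square root of F. CPM use TMM-normalized library sizes. With 3 against 3 libraries a two-sided exact permutation test cannot go below p = 0.1. Pairs of libraries within a group differed beyond sampling noise (chi-square per gene 3.61 to 7.82). Counting limits cover counting error only. Alternatives were DESeq2 1.42.0, RLE size factors, no filter, a mean of at least 10 counts, robust dispersion, protein-coding genes alone, a replicate block, other TPM thresholds and leaving out each library. Tables and figures used Python 3.11.15, pandas 2.3.3, numpy 2.4.6 and matplotlib 3.10.9.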

Additional observations from a re-analysis of the deposited data

How the results depend on the processing

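Between 10 and 11 channel genes were higher with LPS in every setting that kept more than a single library in each group. Ano2 and Kcnab1 made up the 2 DEG in each of these settings. The count of lower genes, 9 as reported, ran from 5 to 9 in the leave-one-out fits and from 7 to 10 under the other planned settings. It was 4 without control replicates 2 and 3 and 5 without control replicate 2 and LPS replicate 3, both chosen after seeing the data. These fits hold fewer libraries, and the cause was not tested. Leaving out control replicates 2 and 3 leaves a single control library, so no call is read from that fit. Its count of lower genes does not show how stable the calls are. In the leave-one-out fits the sign of some genes that were not called reversed, and log2 fold changes ran from -0.01 to 0.12 for Piezo1, -0.03 to 0.04 for Orai1, -0.01 to 0.12 for Ano10, -0.02 to 0.07 for Clcn4, -0.04 to 0.11 for Lrrc8b, -0.13 to 0.03 for Trpm4, -0.18 to 0.13 for Hcn3, -0.05 to 0.26 for Cacnb3 and -0.30 to 0.02 for Clcn2. Without control replicates 2 and 3 Clcn6 was 0.00 and Lrrc8c 0.01, and without control replicate 2 and LPS replicate 3 Cacnb3 was -0.02. The number of genes at 1 TPM or more was 43, with 52 at 0.5 TPM, 36 at 2 TPM and 42 to 44 with a library left out, and 50 to 53 genes passed the filter.

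With a replicate block 11 genes were higher, 8 lower and 2 DEG. Kcnab2 was then called (adjusted p = 0.0426), and Cacna1f (0.0525) and Hvcn1 (0.0618) were not. Deviations of same-numbered libraries correlated at 0.131, 0.048 and 0.005, and those of differently numbered libraries at -0.121 to 0.077. With 3 libraries in each group these values cannot decide whether the numbers pair the samples. Without the filter, Trpc4ap (adjusted p = 0.0533) and Hvcn1 (0.0639) were not called. Among the tested genes reported, depth limits Hvcn1, Kcnab1, Trpm6, Hcn3, Cacnb3, Clcn2, Scn3b and Cacnb1, with under 60 counts in each library. It gives no test for the 84 genes below the filter.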
